A study of Mus musculus with 8 samples.

Results

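H3K4me3 was examined at 10 genes of the NF-κB system in KL and KLG4m/m lung tumor cells. They were the 5 subunits *Nfkb1*, *Nfkb2*, *Rel*, *Rela* and *Relb*, the 3 IκB-type inhibitors *Nfkbia*, *Nfkbie* and *Nfkbiz*, and the 2 ubiquitin-related feedback inhibitors *Tnfaip3* and *Tnip1*. Every H3K4me3 peak that the deposited table assigns to one of these symbols was taken, which gave 28 of the 35486 peaks and 10 of the 20871 genes in that table. None of the 28 peaks and none of the 10 genes passed the edgeR test between KLG4m/m and KL tumor cells in the main analysis, and 1 peak, at the *Nfkb1* start site, passed in some alternative fits. The highest H3K4me3 levels were at the start sites of *Nfkb2*, *Relb* and *Rela*.

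H3K4me3 was profiled by Cleavage Under Targets and Tagmentation (CUT&Tag). An antibody directs a DNA-cutting enzyme to chromatin that carries the mark. The number of reads in a peak therefore follows the amount of the mark there. The study's methods name micrococcal nuclease as that enzyme. KL mice carried Lkb1fl/fl among their alleles and are called WT in the labels (replicates 1 and 2). KLG4m/m mice carried the same alleles and Gpx4m/m and are called CKO (replicates 3 and 4). All mice had received intranasal Ad-Cre at an age of 8 to 10 weeks, tamoxifen from 5 weeks later for 2 weeks (80 mg/kg every other day) and 3 weeks of rest, and cells were taken 10 weeks after Ad-Cre, so the alleles of KL mice, Ad-Cre and tamoxifen were shared by both groups. In the Gpx4m/m allele, Cre removes a STOP cassette and a CAG promoter then drives DreERT2, which deletes part of *Gpx4* once tamoxifen is given. This Ad-Cre is not restricted to a cell type. Tumor cells were sorted as CD45-CD31-EpCAM+, with 1000000 cells per mouse. The mice per group in the study's legend match the libraries of each group, whereas the total in its methods does not. The p-values here set group differences against the spread between libraries, and that spread is estimated largely from all peaks together.

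NF-κB proteins bind DNA as dimers. RelA, c-Rel and RelB carry activation domains, whereas p50 and p52, processed from the products of *Nfkb1* and *Nfkb2*, bind DNA without one. In resting cells the dimers are held in the cytoplasm by IκB proteins. Signals from TNF, IL-1 and Toll-like receptors activate the IκB kinase (IKK) complex, which marks IκBα for degradation in the canonical pathway, while NIK and IKKα drive the processing of p100 to p52 in the noncanonical pathway. *Nfkbia*, *Tnfaip3* and *Tnip1* are themselves switched on by NF-κB and limit its activity. In lung tumors, NF-κB is known for its part in survival and in the production of cytokines and chemokines. H3K4me3 marks the start sites of active and poised genes, so its level is not a measure of transcription.

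Several of these genes carry NF-κB binding sequences just upstream of their start sites, and the promoters of 6 members are shown for that reason. RefSeq promoter windows (GRCm38.p6, 250 bases before to 50 after a start site) were matched by symbol for 7 of the 10 members, with 10 windows in all, and were searched on both strands for the κB consensus. A match was found in 8 of the 10 windows and in 6 of the 7 genes. The same consensus was found in 4.51% of the 32851 windows of the reference table. The 250 upstream bases are printed 5′ to 3′ on the gene's strand, with the bases that match the consensus in capitals, and overlapping matches appear as one longer run.
*Nfkbia* (chr12:55492648-55492897, minus strand): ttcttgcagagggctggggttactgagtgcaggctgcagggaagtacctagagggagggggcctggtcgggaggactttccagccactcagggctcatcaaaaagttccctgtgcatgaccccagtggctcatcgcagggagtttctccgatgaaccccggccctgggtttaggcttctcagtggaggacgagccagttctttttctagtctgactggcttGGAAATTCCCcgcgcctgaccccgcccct
*Tnfaip3* (chr10:19015411-19015660, minus strand, upstream start site): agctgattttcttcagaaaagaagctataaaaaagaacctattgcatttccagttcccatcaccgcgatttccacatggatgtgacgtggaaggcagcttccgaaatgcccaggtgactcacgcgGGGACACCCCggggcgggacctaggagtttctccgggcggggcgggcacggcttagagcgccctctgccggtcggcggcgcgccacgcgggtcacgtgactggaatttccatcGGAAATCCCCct
*Tnip1* (chr11:54962941-54963190, minus strand): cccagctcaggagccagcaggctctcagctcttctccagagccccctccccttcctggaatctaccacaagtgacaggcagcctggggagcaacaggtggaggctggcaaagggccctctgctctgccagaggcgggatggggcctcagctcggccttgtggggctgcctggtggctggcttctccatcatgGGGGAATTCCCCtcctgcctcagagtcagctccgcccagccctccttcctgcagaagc
*Rel* (chr11:23770970-23771219, minus strand): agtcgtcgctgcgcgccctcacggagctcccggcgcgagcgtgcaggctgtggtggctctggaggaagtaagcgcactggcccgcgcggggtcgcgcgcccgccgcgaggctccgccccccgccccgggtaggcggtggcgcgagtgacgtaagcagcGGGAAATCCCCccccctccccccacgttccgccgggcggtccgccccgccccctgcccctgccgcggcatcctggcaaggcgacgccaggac
*Nfkb2* (chr19:46304487-46304736, plus strand, the most upstream start site): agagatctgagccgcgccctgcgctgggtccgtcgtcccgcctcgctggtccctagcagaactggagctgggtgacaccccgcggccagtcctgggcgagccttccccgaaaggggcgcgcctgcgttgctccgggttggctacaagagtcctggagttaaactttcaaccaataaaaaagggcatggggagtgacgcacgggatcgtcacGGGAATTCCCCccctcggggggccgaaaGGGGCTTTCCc
*Nfkbie* (chr17:45555450-45555699, plus strand): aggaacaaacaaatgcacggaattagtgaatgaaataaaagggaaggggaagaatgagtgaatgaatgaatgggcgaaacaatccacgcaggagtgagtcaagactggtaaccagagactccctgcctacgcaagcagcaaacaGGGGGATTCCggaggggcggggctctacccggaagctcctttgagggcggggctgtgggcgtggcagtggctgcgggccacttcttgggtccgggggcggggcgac

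The match of *Nfkbia* began 29 bases upstream of the start site, and those of *Tnfaip3* began 125 and 12 bases upstream. *Tnip1* had 3 overlapping matches from 58 bases upstream, *Rel* had 2 overlapping matches from 92 bases upstream and *Nfkbie* had 1 match 106 bases upstream. The *Nfkb2* window shown held 3 matches, 2 of which overlap, and the other *Nfkb2* windows held 2 and 1. These other windows overlap each other and have a match in common, so that site is counted in both. The *Rela* window and the downstream *Tnfaip3* window had none. A match is a description of the letters, and binding of NF-κB was not measured in these libraries. No promoter window was at hand for *Nfkb1*, *Relb* and *Nfkbiz*. The positions above are GRCm38.p6 positions and cannot be set directly against those of the peak table, whose contig names are those of a later mouse assembly. For *Tnfaip3* the 2 start sites lie 3447 bp apart in RefSeq.

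All 28 peaks are 400 bp long, and peaks of the whole table span 400 to 773 bp, so levels can be compared between the members on an equal length. Levels are given as counts per 1000000 reads in peaks after scaling with TMM factors (normalized CPM), and the 28 peaks held from 11 to 430 reads in a library. Of the 28 peaks, 13 lay within 1 kb of an annotated start site and 15 lay farther away. Among start-site peaks the order of mean levels was *Nfkb2* (117 CPM), *Relb* (109 CPM), *Rela* (95.8 CPM), *Tnip1* (85.1 CPM), *Nfkbia* (76.5 CPM), *Nfkbie* (73.7 CPM), an *Nfkbiz* peak (62.8 CPM), *Rel* (62.1 CPM), the upstream *Tnfaip3* peak (60.9 CPM), the other *Nfkbiz* peak (60.5 CPM) and the downstream *Tnfaip3* peak (41.2 CPM), followed by *Nfkb1* (24.8 CPM) and the second *Tnip1* peak (20.2 CPM). Among all peaks within 1 kb of a start site, *Nfkb2* stood at the 97.7 percentile, *Relb* at the 96.5 *Rela* at the 92.5 and *Nfkb1* at the 35.3. *Nfkb2*, *Relb*, *Rela* and *Tnip1* kept this order in each of the 4 libraries. From *Tnip1* down to the second *Nfkbiz* peak, neighbors changed places in at least 1 library. The downstream *Tnfaip3* peak lay below these peaks and above *Nfkb1* in every library, and *Nfkb1* changed places with the second *Tnip1* peak. Summed over all peaks of a gene, *Tnfaip3* with 5 peaks held the most signal (157 CPM) and *Rel* with 1 peak the least (62.1 CPM).

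**Figure D1:**
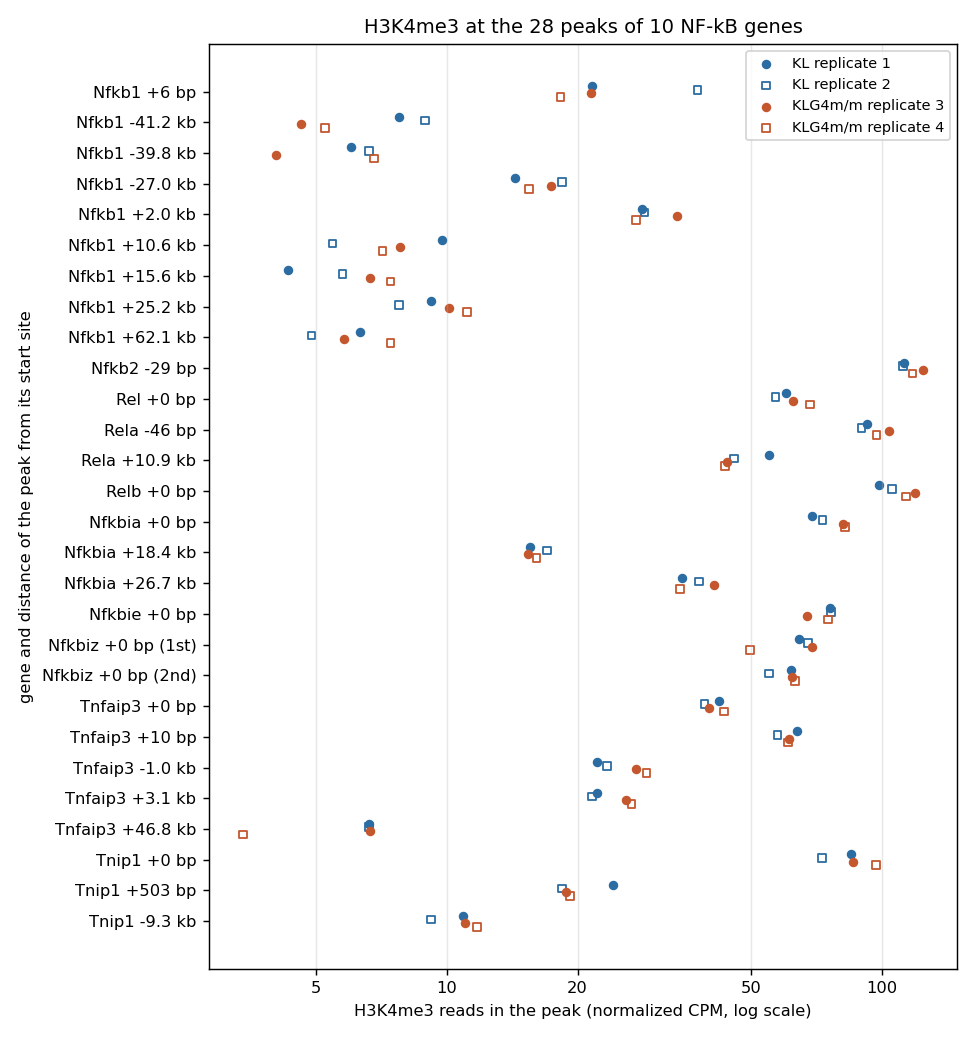
Normalized H3K4me3 CPM on a log axis at each of the 28 peaks, labelled by gene and distance from the annotated start site, with 1 point per library (blue KL, orange KLG4m/m; the small vertical offsets only separate the points). The start sites of *Nfkb2*, *Relb* and *Rela* lie highest, between 89.9 and 125 CPM, and the *Tnfaip3* peak 46.8 kb downstream has the lowest mean (5.83 CPM).

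The comparison of KLG4m/m with KL asked whether H3K4me3 at these genes differed after inducible deletion of *Gpx4*. With edgeR, 0 of the 28 peaks were higher and 0 were lower at an adjusted p below 0.05, against 3.1% and 5.52% of all peaks. At an unadjusted p below 0.05, 3 member peaks were higher, where 11.2% of all peaks were, and 2 were lower, where 13.5% of all peaks were. DESeq2 called 0 of the 28, and 0 had an unadjusted p below 0.05 with it. Of all 35486 peaks it called 33 higher and 244 lower. It gave no adjusted p to the *Tnfaip3* peak 46.8 kb downstream and to some weak *Nfkb1* peaks. The values of the libraries did not overlap between groups at 12 peaks that were higher in KLG4m/m and at 4 that were lower, and the background for this is 27.5% and 26.6% of all peaks. The median log2 fold change (log2FC) of the member peaks was 0.08 and that of all peaks was 0.01. For the 13 start-site peaks it was 0.10, beside 0.00 for all peaks within 1 kb of a start site. A fold change above 0 was seen at 9 of the 13 start-site peaks and at 9 of the 15 others. Of all peaks, 50.4% within 1 kb of a start site and 51.6% beyond it had one, and none of these 28 peaks passed.

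The intervals show which differences these libraries could have missed. The median standard error was 0.11 on the log2 scale for the 13 start-site peaks and 0.24 for the 15 others. Apart from *Nfkb1*, the 95% intervals of the start-site peaks ran from -0.54 to 0.41 at their widest. For the 10 genes, with reads summed over their peaks, the log2FC values ran from -0.10 to 0.19, and all of their 95% intervals lay between -0.30 and 0.37. With edgeR none of the 10 genes passed in either direction, against 5.38% of all genes higher and 9.63% lower, and their adjusted p ran from 0.118 to 0.866. At an unadjusted p below 0.05 there was 1 gene, *Relb*, among the 10, and 28.8% among all genes.

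**Figure D2:**
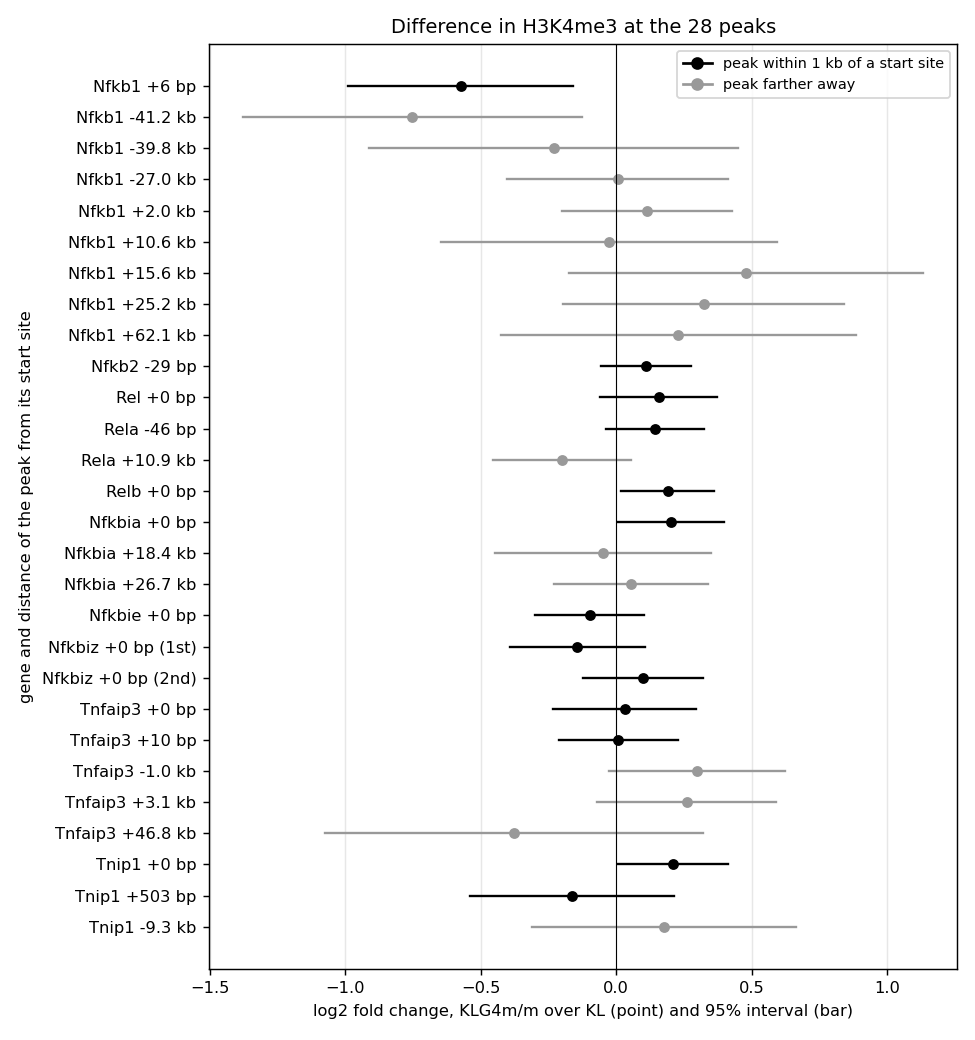
Log2 fold change of H3K4me3 in KLG4m/m over KL at each of the 28 peaks, with the 95% interval from edgeR (black within 1 kb of a start site, gray farther away; 2 libraries per group). Most intervals include 0, and those of the *Nfkb1* start site and of its peak 41.2 kb upstream lie wholly below it while *Relb*, *Nfkbia* and *Tnip1* start sites lie just above it.

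Among the subunits, *Relb*, which encodes the transactivating partner of p52 in the noncanonical pathway, had a single peak at its start site (chr7:19362616-19363016 in the table's coordinates). It measured 98.7 and 106 CPM in KL and 119 and 114 CPM in KLG4m/m. Both KLG4m/m libraries lay above both KL libraries, with a log2FC of 0.19 ± 0.08 (SE, n = 2 per group) that did not pass (edgeR adjusted p = 0.157). *Nfkb2*, which encodes the p52 precursor p100, had one peak 29 bp upstream of its start site with 112 CPM in each KL library and with 125 and 118 CPM in KLG4m/m. Its log2FC was 0.11 ± 0.08 (edgeR adjusted p = 0.421), again with the groups apart.

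*Rela* encodes the main transactivating subunit of the canonical pathway and had a peak 46 bp upstream of its start site and a second peak 10.9 kb downstream that is annotated as distal intergenic. The start-site peak measured 92.3 and 89.9 CPM in KL and 104 and 97.2 CPM in KLG4m/m. The downstream peak measured 54.9 and 45.8 CPM in KL and 44.1 and 43.7 CPM in KLG4m/m. The groups were apart in opposite directions at these peaks, with log2FC values of 0.14 ± 0.09 and -0.20 ± 0.12. Neither passed alone, and in the test of each peak against the summed change of its gene neither passed (edgeR adjusted p = 0.759 and 0.506). In that test 0 of the member peaks passed, against 1.29% of the 22232 peaks it covered. *Rel*, which encodes c-Rel, a subunit prominent in lymphoid and myeloid cells, measured 60.4 and 57 CPM in KL and 62.6 and 68.4 CPM in KLG4m/m at its start site, with the groups apart and a log2FC of 0.16 ± 0.11 (edgeR adjusted p = 0.379).

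*Nfkb1*, which encodes p105 and its product p50, had 9 peaks, the most of any member. By the mean over all libraries, its strongest peak was not at the start site but 2.04 kb downstream. There 28.2 and 28.5 CPM were measured in KL and 33.9 and 27.2 CPM in KLG4m/m, with overlapping groups. In KL alone the start site had the higher mean (29.7 CPM, beside 28.4 CPM for the downstream peak). The downstream peak stood at the 92.5 percentile of peaks beyond 1 kb. At the annotated start site (chr3:135396820-135397220 in the table) the values were 21.6 and 37.7 CPM in KL and 21.5 and 18.3 CPM in KLG4m/m. KL replicate 2 stood high there, while KL replicate 1 lay next to KLG4m/m replicate 3. The log2FC was -0.57 ± 0.20 and missed the threshold (edgeR adjusted p = 0.075). Leaving out KL replicate 1 moved it to -0.92, and leaving out KL replicate 2 moved it to -0.12. The peak passed the test when peaks under a mean of 10 CPM were left out (edgeR adjusted p = 0.0395), in a robust edgeR fit (adjusted p = 0.0348) and without KL replicate 1 (adjusted p = 0.00034), and so did the gene when only its start-site peak was counted (log2FC -0.56, adjusted p = 0.0227).

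The peak 41.2 kb upstream of *Nfkb1* measured 7.77 and 8.93 CPM in KL and 4.64 and 5.26 CPM in KLG4m/m, from 27 and 31 against 16 and 17 reads. Both KLG4m/m libraries lay below both KL libraries, and the log2FC of -0.75 ± 0.30 did not pass (edgeR adjusted p = 0.123). The peak 39.8 kb upstream and the one 27 kb upstream had log2FC values of -0.23 and 0.01, with overlapping groups. Of the 4 intron peaks, those 15.6 and 25.2 kb downstream had higher values in both KLG4m/m libraries, with log2FC values of 0.48 ± 0.32 and 0.32 ± 0.25. Those 10.6 and 62.1 kb downstream overlapped between groups. Summed over the 9 peaks, *Nfkb1* showed a log2FC of -0.09 ± 0.08 (edgeR adjusted p = 0.519).

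**Figure D3:**
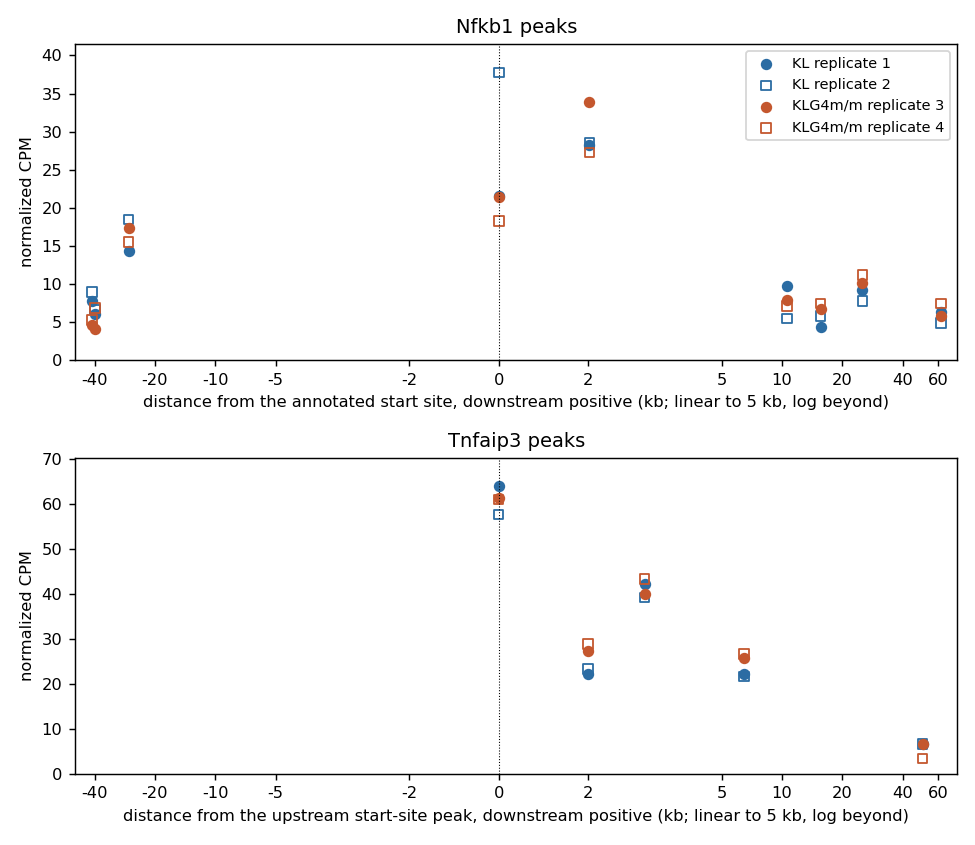
Normalized H3K4me3 CPM in each library (blue KL, orange KLG4m/m) at the 9 *Nfkb1* peaks and the 5 *Tnfaip3* peaks against distance along the gene in kb, linear to 5 kb and logarithmic beyond. At *Nfkb1* the peak 2.04 kb downstream is as strong as the start site, where KL replicate 2 (37.7 CPM) stands apart from the other libraries. At *Tnfaip3* the KLG4m/m points lie above the KL points at the peak between the start sites and at the intron peak. The *Tnfaip3* axis counts from the upstream start-site peak. The intron peak, 3.05 kb downstream of the downstream start site, therefore lies farther along it.

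Among the IκB-type inhibitors, *Nfkbia* encodes IκBα, the inhibitor that retains canonical dimers and is resynthesized after activation. Its start-site peak (chr12:55539348-55539748 in the table) measured 69 and 73.2 CPM in KL and 81.5 and 82.4 CPM in KLG4m/m. Both KLG4m/m libraries lay above both KL libraries, by a log2FC of 0.20 ± 0.10 that did not pass (edgeR adjusted p = 0.183). At its distal peaks 18.4 and 26.7 kb downstream the groups overlapped, with log2FC values of -0.05 and 0.06. *Nfkbie*, which encodes IκBε, measured 75.9 and 76.3 CPM in KL and 67.3 and 75.2 CPM in KLG4m/m, a log2FC of -0.10 ± 0.10 in the direction opposite to *Nfkbia* (edgeR adjusted p = 0.579).

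*Nfkbiz* encodes IκBζ, an atypical nuclear IκB that helps to induce secondary response genes, and had peaks over 2 annotated start sites. The peak at chr16:55642354-55642754 measured 64.4 and 67.7 CPM in KL and 69.3 and 49.9 CPM in KLG4m/m, and KLG4m/m replicate 4 stood low. The peak at chr16:55659006-55659406 measured 61.9 and 55 CPM in KL and 62.1 and 63.2 CPM in KLG4m/m. Their log2FC values were -0.14 ± 0.12 and 0.10 ± 0.11, and neither differed from the summed change of the gene (edgeR adjusted p = 0.836 and 0.813).

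*Tnfaip3* encodes A20, which edits ubiquitin chains on signaling proteins upstream of IKK. Its 2 start-site peaks overlapped between groups. At the upstream one the values were 63.9 and 57.6 CPM in KL and 61.2 and 61 CPM in KLG4m/m, and at the downstream one 42.3 and 39.2 CPM against 40 and 43.3 CPM. The log2FC values were 0.01 ± 0.11 and 0.03 ± 0.13. The peaks 1.03 kb upstream and 3.05 kb downstream of the downstream start site were apart between groups. The former measured 22.2 and 23.3 CPM in KL and 27.3 and 28.8 CPM in KLG4m/m, and the latter 22.2 and 21.6 CPM against 25.8 and 26.6 CPM. These log2FC values of 0.30 ± 0.16 and 0.26 ± 0.16 did not pass (edgeR adjusted p = 0.244 and 0.332), nor did these peaks differ from the summed change of the gene (edgeR adjusted p = 0.743 and 0.842). The peak 46.8 kb downstream had 23, 23 and 23 reads in 3 libraries and 11 in KLG4m/m replicate 4.

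*Tnip1* encodes ABIN-1, which binds A20 and ubiquitin. Its strongest peak, over a start site (chr11:54846660-54847060 in the table), measured 84.9 and 72.9 CPM in KL and 85.8 and 96.9 CPM in KLG4m/m. KL replicate 1 lay close to KLG4m/m replicate 3, and the log2FC of 0.21 ± 0.10 did not pass (edgeR adjusted p = 0.185). The peak 503 bp from another *Tnip1* start site had 24.2 and 18.4 CPM in KL and 18.9 and 19.2 CPM in KLG4m/m, a log2FC of -0.16 ± 0.18. The peak 9.27 kb upstream showed a log2FC of 0.18 ± 0.24. The table also lists 11 peaks of other genes within 20 kb of member peaks, and 0 of them passed the test. A fold change above 0 was seen at 9 of these 11, where 51% of all peaks had one.

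The rest of the pathway was described with lists that held 86 further genes, of which 75 had a peak. With edgeR on summed reads 7 were higher, 6 were lower and 62 did not pass, and their median log2FC was 0.04. Among all genes 5.38% were higher and 9.63% lower, which is the background for the list counts that follow. DESeq2 passed none of the 75 and gave *Ccl2* no adjusted p, and of all 20871 genes it called 119 higher and 336 lower. Fits without a KLG4m/m library leave 1 library in that group and cannot decide these calls. Of the 9 kinases and kinase adaptors of the IKK module with a peak, 4 fell and 1 rose. *Chuk*, which encodes IKKα, measured 54.8 and 59 CPM in KL and 39.8 and 35.8 CPM in KLG4m/m, a log2FC of -0.59 ± 0.13 (edgeR adjusted p = 0.000288). *Ikbkb*, which encodes IKKβ, measured 86.5 and 97 CPM in KL and 69.7 and 71.2 CPM in KLG4m/m, a log2FC of -0.38 ± 0.10 (edgeR adjusted p = 0.00264). Both KLG4m/m libraries lay below both KL libraries at these kinase genes. *Tab2*, an adaptor of TAK1, showed a log2FC of -0.55 ± 0.20 and *Tbk1*, an IKK-related kinase, had -0.31 ± 0.11 (edgeR adjusted p = 0.045 for each). *Tab2* ranged from -1.02 to -0.22 when 1 library was left out, with KLG4m/m replicates 3 and 4 giving these ends. *Map3k14*, which encodes the noncanonical kinase NIK, rose by a log2FC of 0.21 ± 0.07 (edgeR adjusted p = 0.029).

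Of the 11 receptors with a peak 1 fell and none rose, near the background share for lower genes. This was *Tnfrsf11a*, which encodes the receptor RANK, with 28.8 and 34 CPM in KL and 19.2 and 17.6 CPM in KLG4m/m, a log2FC of -0.77 ± 0.17. Of the 7 ligands 1 rose, *Tnfsf14*, which encodes the lymphotoxin-related cytokine LIGHT, with a log2FC of 0.40 ± 0.10. None of the 12 adaptors and ubiquitin ligases and none of the 3 other IκB proteins passed. Of the 9 other feedback inhibitors 1 rose and 1 fell. *Zc3h12a*, which encodes the RNase Regnase-1, showed a log2FC of 0.23 ± 0.06, and *Tax1bp1*, an adaptor of A20, had -0.40 ± 0.11. With 1 call in each direction among 9 genes, these counts are too small to set apart from the background shares. The summed level of the list ran from 745 to 761 CPM over the 4 libraries.

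Of the 24 other NF-κB target genes with a peak 4 rose and none fell, where 5.38% and 9.63% of all genes did. *Mmp9*, which encodes a matrix metalloproteinase abundant in neutrophils, measured 27.4 and 29.7 CPM in KL and 50.6 and 40.4 CPM in KLG4m/m, a log2FC of 0.68 ± 0.14 (edgeR adjusted p = 0.000234). *Lcn2*, which encodes the siderophore-binding protein lipocalin 2, showed a log2FC of 0.48 ± 0.16 and *Irf1*, an interferon-responsive transcription factor gene, had 0.24 ± 0.08. *Ccl2*, which encodes a monocyte chemoattractant, had 6 and 1 reads in KL and 20 and 11 in KLG4m/m, with a log2FC of 2.16 and a 95% interval from 1.03 to 3.29. Leaving out 1 library moved it from 1.41 (without KL replicate 2, edgeR adjusted p = 0.161) to 3.85 (without KL replicate 1), and limma with a pseudocount of 4 gave 0.78. The survival genes *Bcl2l1* and *Cflar* had the highest mean levels of this list (155 and 139 CPM), with log2FC values of 0.00 ± 0.07 and -0.11 ± 0.08 that did not pass. The remaining 18 targets ran from -0.27 (*Cxcl1*) to 0.32 (*Il6*), and none passed.

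**Figure D4:**
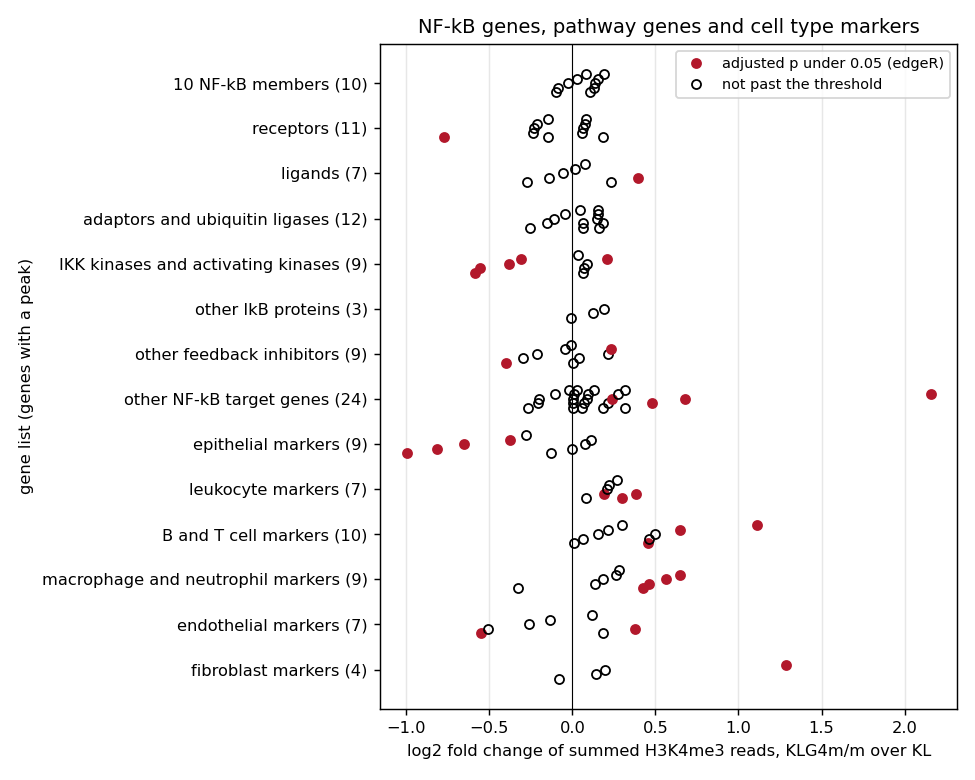
Log2 fold change of summed H3K4me3 reads in KLG4m/m over KL for each gene with a peak in the lists named on the left, with filled points for an adjusted p below 0.05 with edgeR and open points for the rest (vertical offsets only separate the points). The 10 NF-κB members lie between -0.10 and 0.19 with none filled, whereas filled points lie below 0 for 4 IKK module genes and 4 epithelial markers, and all 7 leukocyte markers lie above 0.

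Markers of other cell types moved between the same libraries, and their counts stand beside 5.38% of all genes higher and 9.63% lower. The sort selected CD45-CD31-EpCAM+ cells, yet peaks were present at 7 of the 8 leukocyte markers, with a summed level of 685 and 679 CPM in KL and 777 and 786 CPM in KLG4m/m. Of these 7 genes 3 rose (*Coro1a*, *Itgb2* and *Vav1*) and all 7 had a fold change above 0, where 50.3% of all genes had one. Of the 9 macrophage and neutrophil markers with a peak 4 rose (*Adgre1*, *Itgam*, *S100a8* and *S100a9*), and their sum was 236 and 250 CPM in KL and 319 and 308 CPM in KLG4m/m. Of the 10 B and T cell markers with a peak 3 rose, among them *Cd3d* and *Ms4a1*, with sums of 255 and 235 CPM against 297 and 302 CPM. Of the 9 epithelial markers with a peak 4 fell, among them *Epcam* with a log2FC of -0.82 ± 0.13, and their sum was 419 CPM in each KL library and 338 and 356 CPM in KLG4m/m. Of the 7 endothelial markers 1 rose (*Erg*) and 1 fell (*Tek*), and of the 4 fibroblast markers with a peak 1 rose (*Pdgfrb*). *Ptprc*, which encodes CD45, and *Pecam1*, which encodes CD31, had mean summed levels of 61.8 and 71.7 CPM, beside 43.1 CPM for *Epcam*, from 2, 6 and 2 peaks. No peak was listed for *Sftpc*, *Laptm5*, *Cd79a*, *Marco*, *Col1a2*, *Col3a1*, *Dcn* and *Lum*. Genes of the NF-κB system are also used by myeloid and lymphoid cells, whatever the sign of their fold change here. The part of these cell type markers in the values of the members and of the pathway genes was not tested, and a different share of cells and a different amount of the mark per cell cannot be told apart in such bulk libraries.

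The 4 libraries held 3244495 to 3463731 reads in peaks, with TMM factors between 0.995 and 1.004. The *Gpx4* peak lies at the start site, outside the deleted part of the gene, and so does not check the labels. It measured 69.6 and 68 CPM in KL and 88.2 and 93.2 CPM in KLG4m/m. Its log2FC of 0.40 ± 0.09 passed the test (edgeR adjusted p = 0.0085), and the cause was not tested.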

How the data were processed

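H3K4me3 CUT&Tag was done on 2 KL and 2 KLG4m/m libraries. The H3K27ac libraries of the series were not analysed here. Per the labels and the study's methods, the authors trimmed reads with Trim Galore 0.6.10, aligned them with BWA 0.7.15, removed duplicates with Picard 2.17.3, called peaks with MACS2 2.2.7.1 and used HOMER 4.11.1. The methods name Ensembl annotation of an earlier mouse assembly, whereas the contig names of the table are those of GRCm39, so coordinates are given as deposited. The authors deposited whole-number counts of reads per peak and library, and CPM values that equal those counts per 1000000 reads in peaks. Distances to start sites are the deposited ones.

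Counts were fitted over all peaks with edgeR 4.0.16 (quasi-likelihood, TMM, no filter, two-sided, Benjamini-Hochberg over all 35486 peaks, threshold 0.05, R 4.3.3). The same test was run on reads summed per gene over 20871 genes, and diffSpliceDGE compared each peak with the summed change of its gene. Standard errors, 95% intervals and normalized CPM came from these fits. With 2 libraries per group, the variance behind the intervals came mostly from an estimate shared over all features (prior degrees of freedom 24.5 for peaks). Scripts were tested on simulated data. Alternatives used DESeq2 1.42.0, limma 3.58.1 (log2(CPM + 1), and pseudocounts of 0.25 and 4), other scalings, a filter of 10 CPM, an added 1.5-fold change, other sums per gene, and each library left out. Replicates of a group differed by more than sampling noise (chi-square per degree of freedom 1.13 and 1.23), so no library was counted as a copy. These values cannot tell whether the replicates came from separate mice. The members and gene lists were chosen with earlier results of these data known. All member peaks are described. Of the pathway lists every gene past the threshold was named, at most the 4 largest per list and direction, with the 2 targets of the highest mean CPM. *Cxcl1* and *Il6* were named as the ends of the range of the remaining targets, after their values were seen. Certain alleles and genes are not reported here.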

Additional observations from a re-analysis of the deposited data

How the results depend on the processing

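No paired analysis was possible because KL (replicates 1 and 2) and KLG4m/m (replicates 3 and 4) share no replicate number. The DESeq2, limma and rescaled edgeR fits gave 0 member peaks and 0 member genes in either direction. The exceptions were the *Nfkb1* start-site peak, which made 1 member peak lower after a filter of 10 CPM (21 member peaks tested) and 1 in the robust edgeR fit, and *Nfkb1*, which made 1 member gene lower when only peaks within 1 kb were summed. Across all 4 leave-one-out fits the number of member peaks lower ran from 0 to 1, the 1 being without KL replicate 1. The cause of these changes was not tested.

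The pathway calls rested on edgeR with all 4 libraries. DESeq2 gave 0 higher and 0 lower, all 12 called genes with an adjusted p being lost, limma after quantile normalization gave 4 higher, and an added 1.5-fold change gave 2 higher and 2 lower. With 1 library left out they ran from 0 to 6 higher and 0 to 4 lower, with 0 without either KLG4m/m library. *Tab2* also missed the threshold with RLE factors (adjusted p = 0.0526) and with total reads (0.0509). When a KLG4m/m library was left out, the lone one was assumed to vary like the others, and no peak or gene of the table passed. Over all peaks DESeq2 called 33 higher and 244 lower, quantile normalization 486 and 866, and the 1.5-fold change 712 higher. With 1 library left out they ran from 0 to 702 higher and 0 to 1459 lower. Over all genes DESeq2 called 119 higher and 336 lower, the 1.5-fold change 378 and 990, and leaving out 1 library 0 to 649 and 0 to 1305. DESeq2 thus had 11.9% of its called peaks higher, beside 35.9% with edgeR. Peaks that differed from the sum of their gene numbered 175 after the filter and 35 to 119 with 1 library left out.

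Log2 fold changes of members changed sign in the following cases. The *Nfkb1* peak 10.6 kb downstream was 0.012 with limma at a pseudocount of 1, 0.018 at 0.25 and 0.053 after quantile normalization. Scaling by total reads gave -0.00056 for the upstream *Tnfaip3* start site and -0.0037 for the *Nfkb1* peak 27 kb upstream, and the filter gave -0.011 and -0.015. Summed *Rela* was -0.059 after quantile normalization, and *Nfkb1* was 0.11 by its strongest peak. With 1 library left out, the *Nfkb1* peaks 39.8 and 27 kb upstream and 2.04 and 10.6 kb downstream ran from -0.634 to 0.101, -0.162 to 0.195, -0.061 to 0.261 and -0.384 to 0.449. The *Nfkbia* distal peaks ran from -0.112 to 0.018 and -0.087 to 0.18, and the *Nfkbiz* peak with the low KLG4m/m replicate 4 from -0.41 to 0.072. The downstream and upstream *Tnfaip3* start sites ran from -0.023 to 0.088 and -0.064 to 0.085, the *Tnfaip3* peak 46.8 kb downstream from -0.955 to 0.013, and the *Tnip1* peak at 503 bp from -0.345 to 0.045. Summed *Nfkb1*, *Rela* and *Nfkbiz* ran from -0.182 to 0.025, -0.023 to 0.094 and -0.146 to 0.079. The weakest member peak held 11 reads in a library, and the median standard error was 0.24 beyond 1 kb and 0.11 at start sites.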
